A study of Mus musculus with 4 samples.

Results

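The nuclear-encoded subunits of the mitochondrial respiratory chain and of ATP synthase were examined in mouse peritoneal macrophages exposed to factors released by breast cancer cells. Members were the protein-coding genes whose symbols carry the names of complex I (Ndufa, Ndufb, Ndufc, Ndufs and Ndufv followed by a digit), complex II (Sdha to Sdhd), complex III (Uqcr and Cyc1), complex IV (Cox4 to Cox8) or ATP synthase (Atp5) subunits. The rule reads gene symbols and gene type. Of the 54532 entries in the count table, 86 matched, for 85 gene symbols, because Atp5o has a second entry without reads. They comprised 35 genes of complex I, 4 of complex II, 9 of complex III, 20 of complex IV and 17 of ATP synthase, with Ndufa4 and Ndufa4l2 placed in complex IV, where their proteins reside. A minimum of 10 reads was reached in some library by 79 of the 85 and in every library by 77.

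The macrophages were wild-type (WT) cells from peritoneal fluid, which the study's methods describe as elicited with thioglycollate broth in young adult WT BALB/c mice, and whose sex is not given in the sources used here. Each of 4 conditions had 1 RNA-seq library: normal medium (0% 4T1) with DMSO, normal medium with 10 µM CH223191, 30% 4T1-CM with DMSO and 30% 4T1-CM with 10 µM CH223191. 4T1-CM is medium conditioned by 4T1 mouse mammary carcinoma cells, CH223191 is an antagonist of the aryl hydrocarbon receptor (AHR), and DMSO is its solvent. With 1 library per condition, every ratio below compares 2 libraries and has no replicate check, and every interval is an exact 95% interval for counting error alone. Values in each list follow the order of the conditions given here. The comparisons ask which subunit transcripts differ with tumor-conditioned medium and with AHR blockade.

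Complexes I to IV pass electrons from NADH and succinate to oxygen in the inner mitochondrial membrane, and complexes I, III and IV pump protons that ATP synthase uses to make ATP. Complex II is also succinate dehydrogenase of the TCA cycle, and it has no mitochondrially encoded subunit, whereas the other complexes combine nuclear and mitochondrial gene products. In macrophages, inflammatory activation is known to shift energy supply toward glycolysis, and succinate oxidation at complex II is a known control point of that state. Transcription of the nuclear subunit genes is known to draw on NRF1, ETS-family factors such as GABPA, YY1, SP1 and the estrogen-related receptors (ERR).

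Promoters of 66 of the 85 genes were found in RefSeq (GRCm38.p6), each reaching from 250 bases before to 50 bases after the start, and were searched on both strands for plain letter strings. The NRF1 string CGCATGCG was present in promoters of 9 of the 66 genes (13.6%), against 4.41% of the 9837 genes in the comparisons that had a promoter and 1.87% of all 32851 promoters. For the YY1 string AAGATGGCG the share was 10.6% of the subunit genes (7 genes) against 3.65% of the compared genes and 1.40% of all promoters. The ERR string AAGGTCA was found for 12.1% (8 genes), against 3.83% and 4.72%. By contrast, the ETS string CCGGAAG was found for 24.2% (16 genes) against 20.6% and 8.86%, and the SP1 string GGGCGG for 39.4% (26 genes) against 68.0% and 35.7%. These are counts of letters, not of bound sites.

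Of the 12 subunit genes that were lower with 4T1-CM under both DMSO and CH223191 (described below), 10 had a promoter that could be shown, and for 5 of these the 100 bases before the RefSeq start lay wholly ahead of the gene as the count table places it. These 5 stretches are printed from 5′ to 3′ on the gene's strand, because they show the sequence upstream of members that carry the main difference, with an ERR or SP1 string of either strand in capitals. All lie on the minus strand of GRCm38.p6, Atp5g3 at chr2:73911327-73911426, Ndufb6 at chr4:40279422-40279521, Ndufb8 at chr19:44555443-44555542, Ndufb11 at chrX:20617620-20617719 and Ndufs8 at chr19:3912775-3912874.
Atp5g3: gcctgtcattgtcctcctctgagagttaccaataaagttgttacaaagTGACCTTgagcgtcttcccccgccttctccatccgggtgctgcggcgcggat
Ndufb6: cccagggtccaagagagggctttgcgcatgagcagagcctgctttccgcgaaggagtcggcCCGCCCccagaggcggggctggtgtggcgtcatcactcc
Ndufb8: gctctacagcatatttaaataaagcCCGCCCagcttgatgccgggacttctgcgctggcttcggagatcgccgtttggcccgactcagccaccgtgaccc
Ndufb11: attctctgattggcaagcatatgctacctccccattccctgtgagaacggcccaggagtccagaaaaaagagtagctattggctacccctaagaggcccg
Ndufs8: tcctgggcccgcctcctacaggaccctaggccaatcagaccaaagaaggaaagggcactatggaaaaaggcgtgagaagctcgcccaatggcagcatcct
The Atp5g3 stretch holds the ERR string on the opposite strand, Ndufb6 and Ndufb8 hold the SP1 string on the opposite strand, and the stretches of Ndufb11 and Ndufs8 hold none of the 5 strings.

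Library totals ranged from 15535405 to 17557127 reads, so that 3 reads corresponded to 0.171 to 0.189 CPM (the read count scaled to library size after TMM normalization). The 9 macrophage markers (including Adgre1, Csf1r and Lyz2) summed to 14485, 18655, 40781 and 43573 CPM, of which Lyz2 (lysozyme) made up 80.9% to 82.1% in each library. Of the 9, 5 were at least 1.5-fold higher in both comparisons of the media, among them Adgre1 (F4/80), at 257, 246, 1024 and 873 CPM. Mrc1, the mannose receptor, was lower in 4T1-CM, at 172, 142, 100.1 and 92.6 CPM, with log2 ratios of -0.78 with DMSO and -0.62 with CH223191. Fibroblast markers (6 genes) summed to 63.1, 30.1, 149 and 128 CPM. Epithelial markers of tumor cells stayed at or below 1.36 CPM in sum, with Krt19 at 0, neutrophil markers at or below 1.07 CPM with Ly6g, S100a9 and Retnlg at 0, B cell markers at or below 0.616 CPM, and the T cell and muscle markers had no reads. The part of the macrophage and fibroblast marker differences in the results was not tested, and in bulk RNA fewer cells of a type and less RNA per cell cannot be told apart.

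The library of normal medium with CH223191 stood apart by transcript length. Across 13701 genes, Spearman's rho between the log2 ratio and transcript length was -0.24 for this library against normal medium with DMSO, and 0.24 for 4T1-CM with CH223191 against it, compared with 0.11 and 0.02 in the comparisons without it. Short transcripts thus tended to have higher levels in this library than in both libraries set against it, and many respiratory chain subunits are encoded by short transcripts. In normal medium, 63 of the 79 members (79.7%) were above their DMSO level with CH223191, where 51.2% of all genes were. Their highest level of the 4 libraries lay here for 61 members, a count whose share over all genes was not computed. The comparison of the media that rests on normal medium with CH223191 is also given without this library. What sets this library apart was not tested. Normal medium with DMSO stood apart in another way, with the lowest level of the 4 libraries for each of the 12 measured mitochondrially encoded subunits.

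The subunits as a whole were lower in both libraries with 4T1-CM. Their reads made up 0.745% of the total in the DMSO library of normal medium and 0.858% in its CH223191 library, against 0.587% and 0.556% in 4T1-CM. Summed over the 85 genes, the level was 7262, 8705, 5891 and 5614 CPM, a ratio of 0.811 for 4T1-CM over normal medium with DMSO and of 0.645 with CH223191. For 54 of the 79 genes (68.4%), both 4T1-CM libraries lay below both normal-medium libraries, as they did for 33.1% of all 13715 genes compared, and Cox6a2 was the 1 gene for which both lay above. Log2 ratios were below 0 in both comparisons for 55 of the 79 (69.6%), against 37.7% of all genes.

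**Figure D1:**
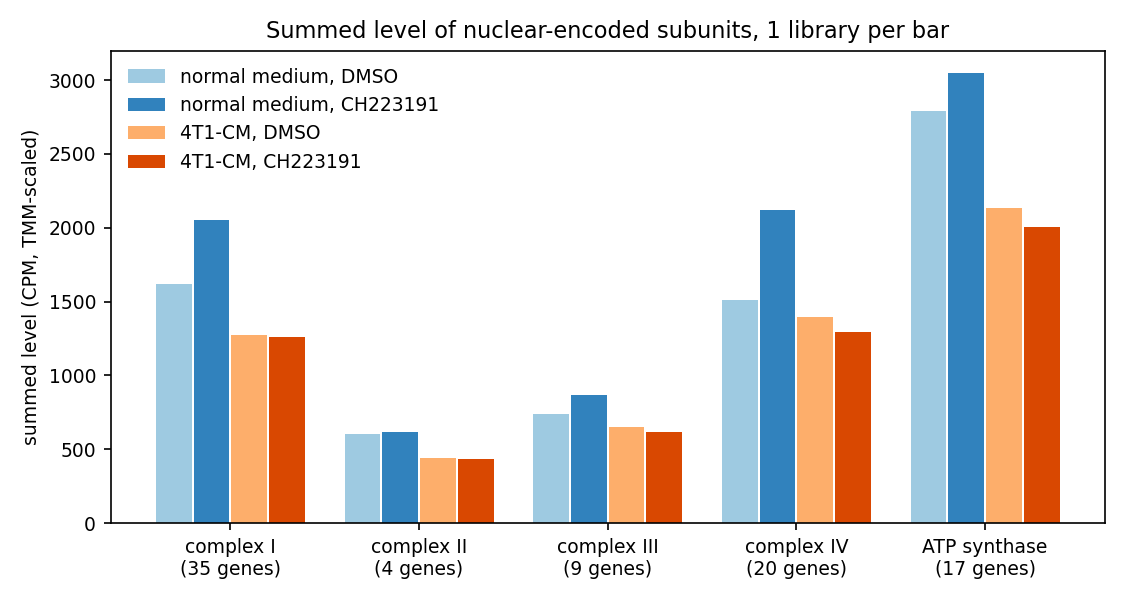
Summed level in CPM (vertical axis, from 0) of the nuclear-encoded subunit genes of each complex, with 1 bar per library. In each of the 5 groups both 4T1-CM bars are shorter than both normal-medium bars, and ATP synthase has the tallest bars, between 2003 and 3047 CPM.

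A gene was counted as different when 2 libraries differed at least 1.5-fold. With DMSO, 14 of the 79 genes were lower in 4T1-CM (17.7%) where 15.2% of all genes were, a share near the background, and 3 were higher (3.80%) where 20.1% of all genes were. With CH223191, 40 were lower (50.6%) where 17.5% of all genes were, and 1 was higher where 20.9% of all genes were. Both comparisons, which share no library, had 12 subunit genes lower (15.2%) where 9.57% of all genes were, and 1 higher where 13.9% of all genes were. The median log2 ratio of the 79 genes was -0.27 with DMSO and -0.59 with CH223191, beside 0.01 and 0.02 over all genes.

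Set against normal medium with DMSO instead, 4T1-CM with CH223191 had a median log2 ratio of -0.28, with 20 genes lower (25.3%, against 15.2% of all genes) and 6 higher (7.59%, against 21.2%). The same 12 genes were then lower in both 4T1-CM libraries, where 10.8% of all genes were. The larger number of genes lower under CH223191 thus depended on the normal-medium library it was read against.

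**Figure D2:**
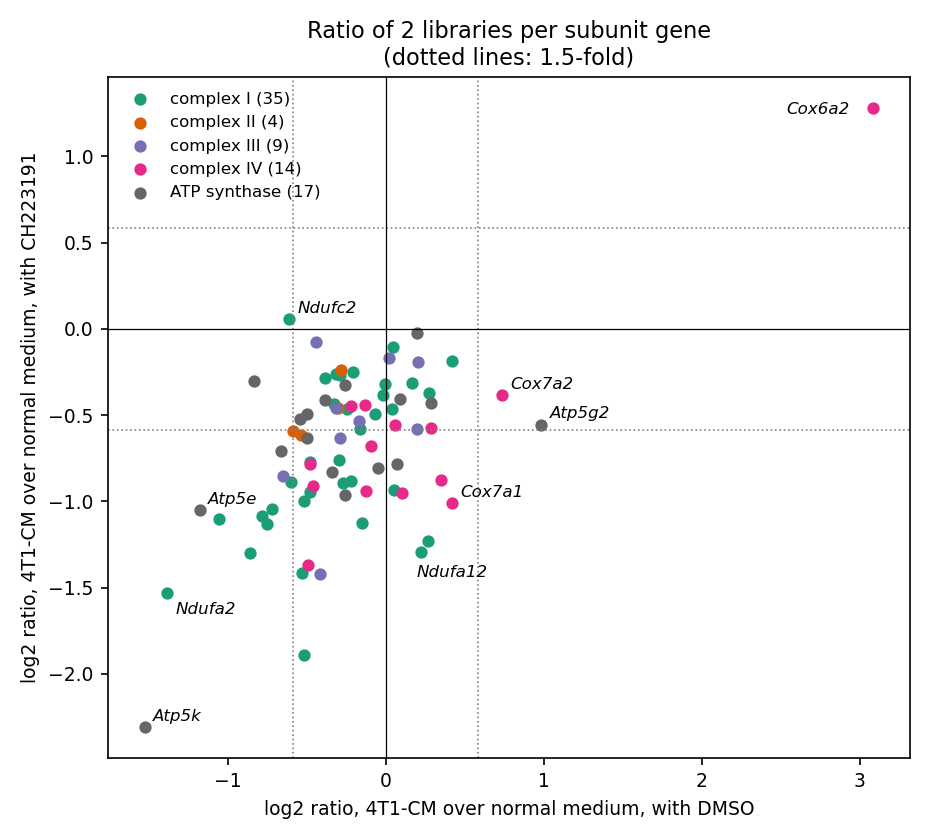
Each point is 1 of the 79 subunit genes, with the log2 ratio of 4T1-CM over normal medium with DMSO on the horizontal axis and with CH223191 on the vertical axis, colored by complex, and dotted lines at 1.5-fold. Most points lie below 0 on both axes, Atp5k is lowest on both, and Cox6a2, which rests on 3 to 33 reads per library, stands alone at the upper right.

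Complex I, the NADH dehydrogenase, was lower in 4T1-CM both in its catalytic core and in its supernumerary subunits. Its 35 genes summed to 1617, 2051, 1276 and 1261 CPM. Both 4T1-CM libraries lay below both normal-medium libraries for 25 of the 35, as they did for 33.1% of all genes compared. All 7 nuclear-encoded core subunits, which together hold the flavin and the iron-sulfur clusters, had log2 ratios below 0 in both comparisons, with medians of -0.33 with DMSO and -0.44 with CH223191. Only Ndufs8 among them was at least 1.5-fold lower in both, where 9.57% of all genes were.

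Ndufs8, a core subunit that binds iron-sulfur clusters, had 45.8, 52.2, 27.8 and 25.3 CPM. Both 4T1-CM values were below both normal-medium values, with log2 ratios of -0.72 (-0.89 to -0.55) and -1.04 (-1.22 to -0.87). Ndufs8 is named for being lower in both comparisons, so this separation is largely set by the choice. Ndufv1, the core subunit that binds FMN and NADH, had 56.2, 62.2, 40.2 and 36.4 CPM, and its log2 ratios were -0.48 and -0.77. Of the core subunits, Ndufv2 had the DMSO ratio nearest to 0, at -0.07 (-0.20 to 0.07).

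The 28 supernumerary subunits of complex I, which assemble around the core, had a median log2 ratio of -0.25 with DMSO and -0.89 with CH223191. Of the 28, 6 genes (Ndufa2, Ndufa8, Ndufb6, Ndufb7, Ndufb8 and Ndufb11) were at least 1.5-fold lower in both comparisons, where 9.57% of all genes were. The 28 have a median transcript length of 747.5 bases. Among 596 other protein-coding genes with transcripts under 1000 bases, 108 were also lower in both. These 6 are named for that difference, so the separation of the media described for them is largely set by the choice. Ndufa2, of the matrix-facing arm, had 83.6, 92.6, 32.0 and 32.0 CPM, the lowest DMSO ratio of the complex, at -1.38 (-1.53 to -1.24), and -1.53 (-1.68 to -1.39) with CH223191. The 2 normal-medium values and the 2 4T1-CM values of Ndufa2 did not overlap, and were 2.61-fold apart with DMSO and 2.89-fold with CH223191.

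Ndufb7, a membrane-arm subunit, had 83.1, 99.5, 40.1 and 46.3 CPM, with log2 ratios of -1.05 (-1.19 to -0.92) and -1.10 (-1.23 to -0.98). Ndufb8 had 47.0, 67.6, 26.0 and 27.4 CPM, with -0.86 and -1.30. Ndufb11, an X-linked membrane-arm subunit, had 60.5, 80.2, 35.1 and 37.8 CPM, with -0.78 and -1.08. In each of these 3 genes the 4T1-CM libraries lay close together and below both others, and Ndufb11 shares 12.9% of its exon bases with Rbm10 on the opposite strand.

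Ndufa8, an intermembrane-space-facing subunit, had 57.4, 67.8, 37.9 and 36.7 CPM, with log2 ratios of -0.60 and -0.89. Ndufb6 had 22.2, 28.3, 13.2 and 12.9 CPM, with -0.75 and -1.13. Because 31.6% of the 50-base words of Ndufb6 transcripts also occur in the overlapping gene Smim27, which had 14 to 31 reads per library, the counts of Ndufb6 are uncertain. Both genes again showed no overlap between the media.

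Other supernumerary subunits differed in a comparison that includes the library that stood apart. Ndufs6 had 18.3, 41.2, 12.7 and 11.1 CPM and the lowest log2 ratio of the complex with CH223191, at -1.89 (-2.14 to -1.65), but -0.52 (-0.78 to -0.26) with DMSO. Ndufa12 had 4.21, 16.5, 4.92 and 6.71 CPM, so that normal medium with CH223191 was high and the other 3 libraries were low. Its counts are uncertain, since 17.7% of its 50-base words occur in the pseudogene Gm15920, which drew 268 to 352 reads.

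Ndufc2 was the 1 gene of complex I above 0 with CH223191, at 0.06 (-0.14 to 0.25), and it had 40.7, 26.3, 26.6 and 27.4 CPM. Normal medium with DMSO was the high library for this gene, and the other 3 agree within counting error. Ndufb2 had the highest DMSO ratio of the complex, 0.42 (-0.21 to 1.08), an interval that includes 0, at 2.26, 4.22, 3.03 and 3.70 CPM. Per kilobase of transcript, Ndufa7 was the most abundant gene of complex I, at 104, 155, 107 and 113 CPM per kilobase.

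Complex II, succinate dehydrogenase, was lower with 4T1-CM in each of its 4 genes and in both comparisons. Its sum was 601, 616, 441 and 437 CPM, and the median log2 ratio of the 4 genes between the normal-medium libraries was -0.01, with Sdhd at 0.26. Sdha, the flavoprotein that oxidizes succinate, had 232, 233, 155 and 154 CPM. Its log2 ratios of -0.59 (-0.66 to -0.52) with DMSO and -0.59 (-0.67 to -0.52) with CH223191 sit just past 1.5-fold.

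Sdhb, the iron-sulfur subunit, had 119.5, 111, 98.4 and 94.1 CPM, with log2 ratios of -0.28 (-0.37 to -0.19) and -0.24 (-0.34 to -0.14), the smallest differences in the complex. Sdhc, a membrane anchor, had 123, 120.3, 84.6 and 78.5 CPM, with -0.54 and -0.62, and so passed 1.5-fold with CH223191 but not with DMSO. Sdhd, the other anchor, had 126, 152, 103 and 110.4 CPM, with -0.30 and -0.46, and was the most abundant per kilobase, at 103, 123, 83.5 and 89.7 CPM per kilobase. For all 4 genes both 4T1-CM libraries lay below both normal-medium libraries, as they did for 33.1% of all genes compared.

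Complex III, the cytochrome bc1 complex, summed to 738, 869, 649 and 620 CPM, and its 9 genes had medians of -0.29 with DMSO and -0.53 with CH223191. For 6 of the 9, both 4T1-CM libraries lay below both normal-medium libraries, as they did for 33.1% of all genes compared. Uqcrb, a small matrix-side subunit near the quinone site, was the 1 gene at least 1.5-fold lower in both, with 52.6, 62.0, 33.6 and 34.4 CPM and log2 ratios of -0.65 (-0.80 to -0.49) with DMSO and -0.85 with CH223191. Its counts are uncertain because 25.5% of its 50-base words occur in other genes. Of all genes compared, 9.57% were at least 1.5-fold lower in both. Uqcr11, another small subunit, had 39.6, 90.4, 29.7 and 33.7 CPM and the lowest ratio with CH223191, at -1.42 (-1.57 to -1.28), with normal medium and CH223191 as the high library.

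The redox-active subunits of complex III did not move together. Cyc1, which carries cytochrome c1 heme, had 83.1, 82.1, 84.3 and 73.2 CPM, with a DMSO ratio of 0.02 (-0.09 to 0.13). Uqcrfs1, the Rieske iron-sulfur protein, had 117, 94.5, 86.5 and 89.8 CPM, with -0.44 (-0.54 to -0.34) with DMSO and -0.07 (-0.18 to 0.03) with CH223191, the value nearest to 0 in the complex. Uqcrc2, a core protein, and Uqcrq, a small subunit, had the highest DMSO ratios, both 0.20. Uqcrh, the hinge protein, was most abundant per kilobase, at 141, 180.0, 126 and 124 CPM per kilobase.

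Complex IV, cytochrome c oxidase, had the sum that differed least between the media with DMSO among the 5 groups, at 1512, 2123, 1393 and 1293 CPM. The 11 widely expressed subunits had a median log2 ratio of -0.09 with DMSO and -0.78 with CH223191, and none of the 11 was at least 1.5-fold lower with DMSO. With CH223191, 7 of the 11 were, in a comparison that includes the library that stood apart by transcript length. Of all genes, 15.2% were lower with DMSO and 17.5% with CH223191. For 7 of the 14 measured genes of the complex, both 4T1-CM libraries lay below both normal-medium libraries, as they did for 33.1% of all genes compared.

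Cox4i1, an early-assembling subunit and the most abundant of the complex per kilobase, had 468, 525, 336 and 305 CPM per kilobase. In CPM its log2 ratios were -0.48 (-0.53 to -0.42) and -0.78 (-0.84 to -0.72), and both 4T1-CM libraries were below both others. Cox5b had 55.8, 118, 39.7 and 45.9 CPM, with the lowest ratios of the complex in both comparisons, at -0.49 (-0.64 to -0.35) and -1.37 (-1.49 to -1.25). Of its 50-base words, 11.9% occur in Gm11273, which had 37, 143, 38 and 44 reads.

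With DMSO, 5 of the 11 widely expressed subunits of complex IV had ratios above 0, namely Cox7a2, Cox8a, Cox6c, Cox7b and Cox5a, and 1 of them, Cox7a2, passed 1.5-fold. Cox7a2, the isoform found in most tissues, had 45.1, 95.6, 75.2 and 73.2 CPM, with log2 ratios of 0.74 (0.60 to 0.87) with DMSO and -0.38 (-0.50 to -0.27) with CH223191. Cox8a had 115, 258, 147 and 141 CPM, with 0.35 and -0.88. For both genes normal medium with DMSO was the lowest library, normal medium with CH223191 the highest, and the 4T1-CM libraries lay between them.

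The isoform sets of complex IV were dominated by their widely expressed members. Cox4i2, an isoform known from lung, had at most 1 read in any library, Cox6b2, known from testis, 1 to 5 reads, and Ndufa4l2 at most 1 read. Cox7b2, Cox8b and Cox8c had none, which allows up to 0.171 to 0.189 CPM. Per kilobase, Cox6a1 had 413, 442, 377 and 325 CPM, Cox6b1 209.7, 292, 153 and 156 CPM, Cox7a2 68.5, 145, 114 and 111 CPM, and Cox7b 57.5, 112, 61.9 and 57.8 CPM. Cox7a2l, which promotes supercomplex assembly, had 158, 189.8, 136 and 139 CPM per kilobase, and Ndufa4 had 135, 198, 127 and 124.

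The heart and skeletal muscle isoforms Cox6a2 and Cox7a1 were detected at few reads. Cox6a2 had 3, 13, 32 and 33 reads, or 0.188, 0.818, 1.83 and 2.03 CPM, and was higher in both 4T1-CM libraries, with log2 ratios of 3.09 (1.60 to 5.63) and 1.28 (0.35 to 2.36). Cox7a1 had 6, 34, 9 and 17 reads, and its ratios were 0.42 (-1.20 to 2.22) and -1.01 (-1.96 to -0.15). The muscle markers Myh4, Acta1, Ckm and Mb had no reads in any library.

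ATP synthase had the largest sum, at 2794, 3047, 2133 and 2003 CPM. For 12 of its 17 genes, both 4T1-CM libraries lay below both normal-medium libraries, as they did for 33.1% of all genes compared. In the F1 head and stalk, which hold the catalytic sites and the rotor shaft, the median log2 ratio was -0.50 with DMSO and -0.52 with CH223191. Atp5b, the catalytic beta subunit and the most abundant per kilobase, had 371, 367, 263 and 237 CPM per kilobase. In CPM its log2 ratios were -0.50 (-0.54 to -0.46) and -0.63 (-0.68 to -0.59).

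Atp5a1, the alpha subunit, had 768, 689, 527 and 480.1 CPM, with log2 ratios of -0.54 and -0.52. Atp5e, the epsilon subunit of the central stalk, had 160.3, 158, 70.9 and 76.5 CPM, with -1.18 (-1.28 to -1.08) and -1.05 (-1.15 to -0.95), more than 2-fold lower in both. Atp5c1, the gamma subunit of the same stalk, had 139.6, 175, 149 and 132 CPM, with 0.09 (0.01 to 0.18) and -0.41 (-0.49 to -0.32). The stalk genes Atp5e and Atp5c1 therefore differed in direction with DMSO.

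The 3 genes for subunit c, the membrane rotor ring, encode the same mature protein and did not move together. Atp5g3 had 161, 158, 101 and 96.7 CPM, with log2 ratios of -0.66 (-0.75 to -0.58) and -0.71 (-0.80 to -0.62), and its 100 bases before the start hold the ERR string printed above. Atp5g2 had 47.3, 139, 93.8 and 94.7 CPM, with 0.99 (0.86 to 1.11) with DMSO and -0.56 (-0.65 to -0.46) with CH223191. Of the Atp5g2 words, 38.3% occur in other genes, among them the pseudogene Gm10175 with 14, 59, 29 and 38 reads, so its counts are uncertain. Atp5g1 had the lowest counted level, at 3.41, 3.87, 4.17 and 2.87 CPM per kilobase, where Atp5g3 had 222, 218, 140.3 and 134 and Atp5g2 64.8, 190.3, 128 and 129.5. These values divide by transcripts of 4715 bases for Atp5g1, 723 for Atp5g3 and 731 for Atp5g2. Of the Atp5g1 words, 6.86% occur in the pseudogene Gm10039. That pseudogene drew 643, 1090, 717 and 564 reads, beside 256, 290, 344 and 220 for Atp5g1. The counts of Atp5g1, and so its rank, are therefore uncertain.

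Atp5k, the small membrane subunit e that helps ATP synthase form dimers, had the lowest ratio of all members in both comparisons. It had 27.5, 68.1, 9.55 and 13.7 CPM, with log2 ratios of -1.52 (-1.79 to -1.27) with DMSO and -2.31 (-2.52 to -2.10) with CH223191. Both 4T1-CM values were below both normal-medium values, which themselves differed. Atp5k is named for being lower in both comparisons, so this separation is largely set by the choice. The 4 small membrane subunits (Atp5k, Atp5l, Atp5j2 and Atp5mpl) had medians of -0.15 with DMSO and -0.88 with CH223191. Atp5j, of the peripheral stalk, had 63.8, 74.3, 73.2 and 73.1 CPM and the ratio with CH223191 nearest to 0 in the complex, at -0.02 (-0.14 to 0.09).

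**Figure D3:**
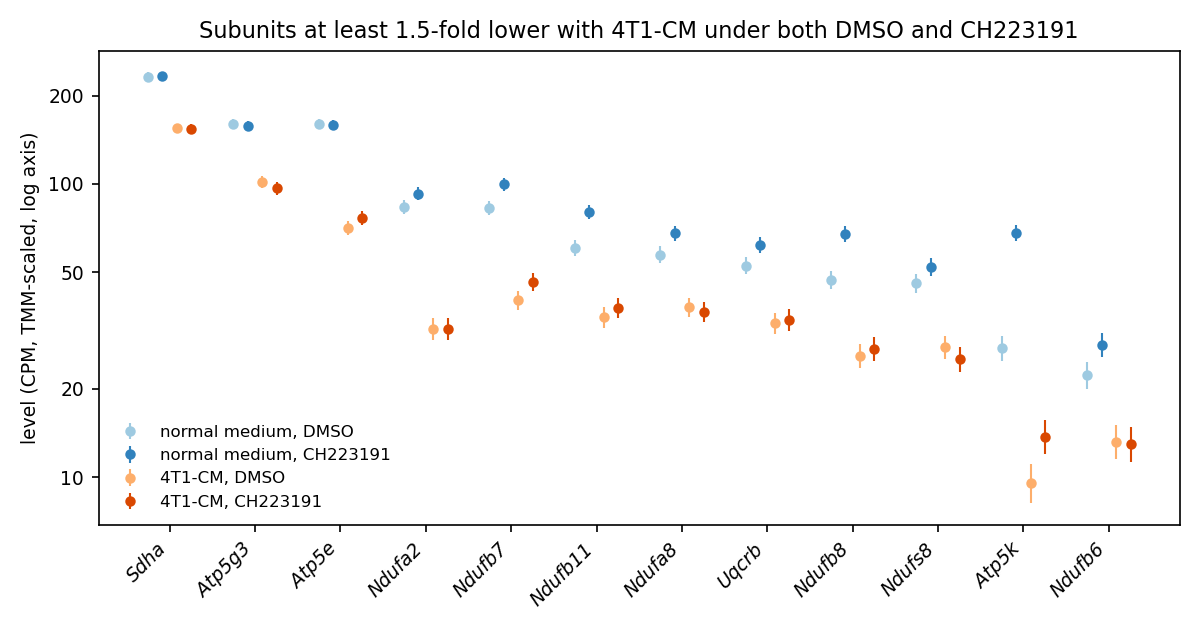
Level in CPM (vertical axis, log scale) of the 12 subunit genes that were at least 1.5-fold lower in 4T1-CM with both DMSO and CH223191, with 1 point per library and bars for the exact 95% Poisson interval of the reads. For each gene the 2 orange 4T1-CM points lie below the 2 blue normal-medium points, from Sdha near 155 against 232 CPM to Atp5k at 9.55 and 13.7 against 27.5 and 68.1 CPM. The genes were picked by this difference, so their separation is largely set by the choice.

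CH223191 in 4T1-CM left the subunits near the level with DMSO. Of the 79 genes, 1 was higher (1.27%), where 6.19% of all genes were, and 0 were lower, where 6.15% were. The median log2 ratio was -0.03, and apart from Cox7a1 the ratios lay inside 1.5-fold, with Atp5g1 lowest at -0.54 (-0.79 to -0.29). Cox7a1 was the 1 gene past 1.5-fold, at 0.98 on 9 against 17 reads, and its interval of -0.22 to 2.37 includes 0. Next to it was Atp5k, at 0.52 (0.23 to 0.82).

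In normal medium, CH223191 went with higher levels of many subunits. Of the 79 genes, 24 were higher (30.4%) where 10.6% of all genes were, and 1 was lower, Ndufc2 at -0.63 (-0.81 to -0.45), where 7.5% of all genes were. The median log2 ratio was 0.32. The highest ratios were those of Cox7a1, at 2.41 (1.24 to 4.05) on 6 against 34 reads, Ndufa12 and Cox6a2, both 1.96, Ndufa3, at 1.62 (1.45 to 1.79), and Atp5g2, at 1.55 (1.44 to 1.68). Core complex I subunits, complex II and the F1 subunits had medians of -0.01, -0.01 and -0.01, whereas supernumerary complex I subunits had 0.52 and the small membrane subunits of ATP synthase 0.63.

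Across both media, Cox7a1 was the 1 subunit gene higher under CH223191 in each medium, where 2.1% of all genes were, and 0 were lower in both, where 1.66% were. The difference between the media in the response to CH223191 was not tested, since each medium has 1 library per arm.

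Members with short transcripts were more often high in normal medium with CH223191 than those with long ones, with overlap between the classes. At least 1.5-fold higher under CH223191 in this medium were 19 of the 46 members with transcripts under 1000 bases and 5 of the 33 longer ones. These are 41.3% and 15.2%, where 10.6% of all genes were higher. The 46 short members had medians of 0.56 for CH223191 over DMSO in normal medium and of -0.86 for 4T1-CM over normal medium with CH223191. For the 33 longer members the medians were 0.17 and -0.43. In the comparison of 4T1-CM with normal medium under DMSO the medians were alike, at -0.28 and -0.26, and for CH223191 in 4T1-CM they were 0.01 and -0.08. The shares called with DMSO were not alike. At least 1.5-fold lower were 23.9% of the short and 9.09% of the longer members, where 15.2% of all genes were. At least 1.5-fold higher were 6.52% and 0%, where 20.1% of all genes were.

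Among 596 other protein-coding genes with transcripts under 1000 bases, 30.7% were higher under CH223191 in normal medium, beside 41.3% of the 46 short members. In 4T1-CM against normal medium with CH223191, 45.8% of these other genes were lower, beside 69.6% of the short members. With DMSO the shares lower were 22.5% and 23.9%. Genes of the cytosolic ribosome, also mostly short, had medians of 0.57 and -0.77 in the first 2 of these comparisons.

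Removing the trend on transcript length over all genes moved the median with CH223191 from -0.59 to -0.38 and that of CH223191 in normal medium from 0.32 to 0.16. The median with DMSO moved from -0.27 to -0.15. After the removal, 10.1% of the members were lower with DMSO, below the 14.4% of all genes. With CH223191, 31.6% of the members were lower, against 15.7% of all genes. Of the 12 genes, 7 stayed at least 1.5-fold lower in both comparisons of the media, namely Atp5e, Atp5k, Ndufa2, Ndufb6, Ndufb7, Ndufb8 and Ndufb11. These are 8.86% of the 79 members, and the same removal left 8.86% of all 13701 genes with a transcript length lower in both, so that the members' share equals the background. Before the removal the shares were 15.2% and 9.57%.

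**Figure D4:**
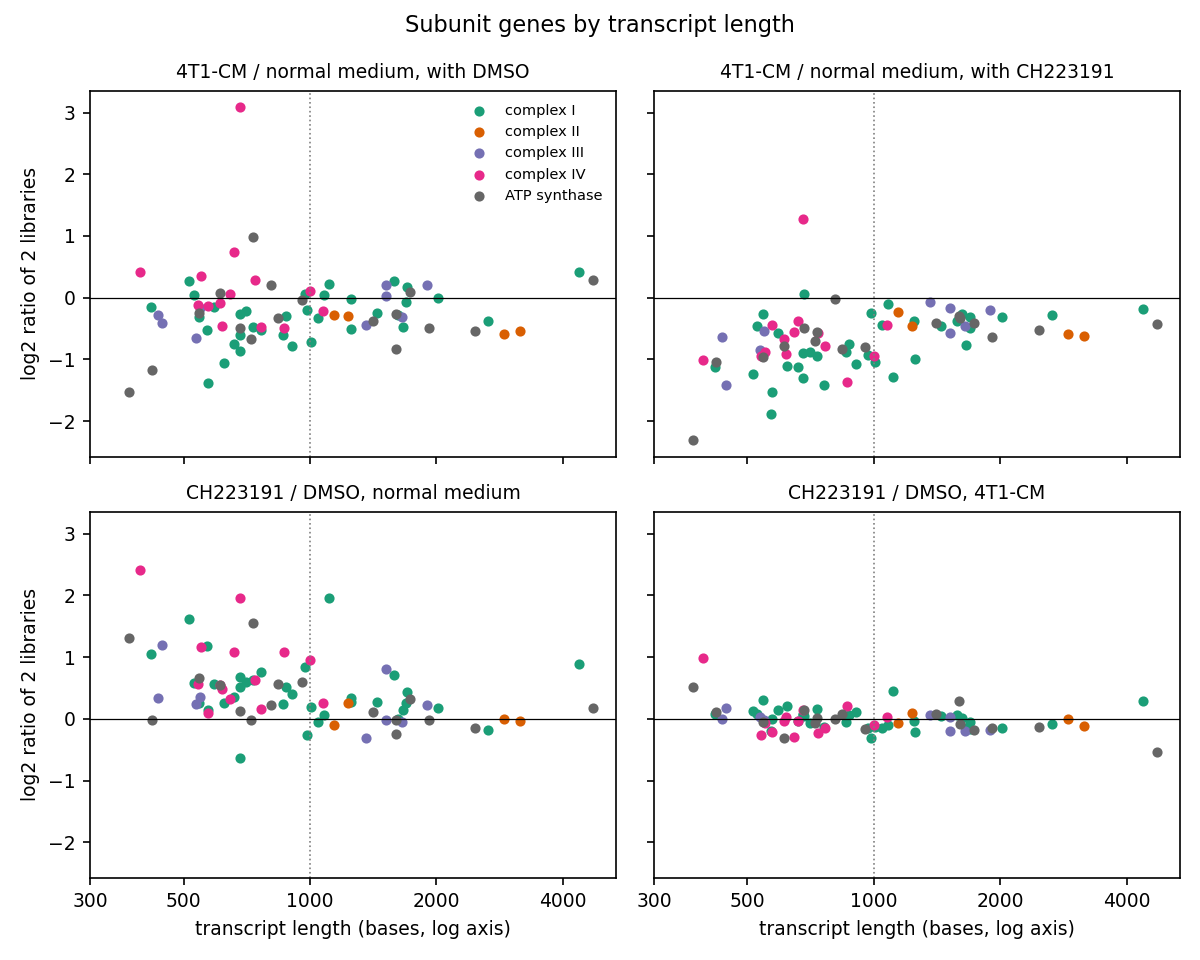
Log2 ratio of 2 libraries (vertical axes) against transcript length in bases (horizontal axes, log scale) for the 79 subunit genes in the 4 comparisons, with a dotted line at 1000 bases. In both panels that include normal medium with CH223191 the short transcripts lie farther from 0, with medians of -0.86 and 0.56, than the long ones, with -0.43 and 0.17.

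With DMSO, the 12 measured mitochondrially encoded subunits did not follow the nuclear-encoded ones. All 12 were at least 1.5-fold higher in 4T1-CM, where 20.1% of all genes were, with a median log2 ratio of 1.46. Among them, mt-Nd3 and mt-Nd4l had only 2 reads each in normal medium with DMSO. With CH223191 they were mixed, with a median of 0.34, 8 above 0 and 4 below. Of these, 3 were at least 1.5-fold higher and 1 lower, mt-Nd3 at -0.75 on 25 against 15 reads. In that comparison 20.9% of all genes were higher and 17.5% lower. mt-Cytb was at -0.44 (-0.47 to -0.41), and mt-Nd4 and mt-Co2 were near 0, at -0.07 and -0.06. Against normal medium with DMSO, the lowest library, CH223191 in normal medium had a median of 1.88. The comparisons with medians of 1.46 and 1.88 share that library.

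mt-Co1, the catalytic subunit of complex IV, had 3254, 5427, 8267 and 9148 CPM, with log2 ratios of 1.35 and 0.75 for 4T1-CM over normal medium. mt-Nd1, a complex I subunit, had 751, 1446, 1915 and 1930.4 CPM, with 1.35 and 0.42. mt-Nd4l and mt-Atp6 were also at least 1.5-fold higher with 4T1-CM in both comparisons, the first on 2, 28, 42 and 61 reads and the second on 31, 145, 178 and 316 reads. Of all genes compared, 13.9% were higher in both. With CH223191, 4 of the 12 (mt-Nd4l, mt-Co2, mt-Co3 and mt-Atp6) were past 1.5-fold upward in each medium, where 2.1% of all genes were. mt-Co2 had 10.8, 58.4, 23.9 and 55.9 CPM, low beside mt-Co1, and reads of some mitochondrial genes can also match nuclear copies, so these counts are uncertain.

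Assembly factors and regulators were read from lists of known genes. Over all genes compared, 9.57% were at least 1.5-fold lower in both comparisons of the media, the share to set beside each list that follows. Among 14 complex I assembly factors, the medians were -0.31 with DMSO and -0.46 with CH223191. Ndufaf2, Ndufaf7 and Ndufaf8 were at least 1.5-fold lower in both. Ndufaf8 had 13.6, 17.2, 6.17 and 5.73 CPM, with log2 ratios of -1.14 and -1.58, and Ndufaf7, a methyltransferase, had 10.9, 7.99, 5.72 and 4.74 CPM, with -0.92 and -0.75. Ndufaf2 had 5.02, 8.12, 3.32 and 2.53 CPM, with -0.59 and -1.67.

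Of 6 complex III assembly factors, Uqcc3 was lower in both, at 27.5, 28.9, 13.3 and 14.0 CPM and log2 ratios of -1.05 (-1.29 to -0.82) and -1.04 (-1.28 to -0.81). Of 17 measured complex IV assembly factors, with medians of -0.30 and -0.37, 3 were lower in both. These were Cox11, which delivers copper, at 4.27, 4.15, 1.49 and 2.22 CPM, Pet100, at 12.7, 26.6, 7.03 and 5.91 CPM, and Cox20, on 11, 7, 4 and 2 reads with intervals that include 0. Cox20 was also the 1 listed gene lower with CH223191 in both media, on the same few reads. The 4 assembly factors of ATP synthase had medians of -0.13 and -0.03, the 4 of complex II -0.11 and -0.10, and neither list had a gene lower in both.

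Of 16 regulators of mitochondrial gene expression, Esrra, which encodes estrogen-related receptor alpha, was the 1 gene at least 1.5-fold lower in both, at 54.6, 60.3, 28.3 and 31.0 CPM, with log2 ratios of -0.95 (-1.11 to -0.79) and -0.96 (-1.12 to -0.80). Both 4T1-CM values were below both normal-medium values, a separation largely set by naming the gene for being lower in both. Over all genes compared, 9.57% were at least 1.5-fold lower in both, so 1 gene of 16 does not set this list apart. Nrf1 had 19.0, 21.6, 22.7 and 23.8 CPM and Gabpa 39.3, 29.9, 39.8 and 40.9 CPM, with DMSO ratios of 0.25 and 0.02. The list's medians were 0.03 and 0.17, and none of its genes was higher in both.

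Enzymes of the TCA cycle and pyruvate dehydrogenase, 17 genes, had medians of -0.18 and -0.24, with 0 genes at least 1.5-fold different in both comparisons. The 7 genes of ATP and phosphate exchange and uncoupling had -0.31 and -0.49, the 13 of coenzyme Q synthesis -0.04 and -0.25, and neither list had a gene past 1.5-fold in both. Cycs, which encodes the mobile carrier cytochrome c, had 38.2, 61.0, 36.6 and 31.8 CPM. Mitochondrial ribosomal proteins, 77 genes, had -0.21 and -0.39, with 11 lower in both, and cytosolic ribosomal proteins, 76 genes, had -0.18 and -0.77, with 14 lower in both. Beside these stand 12 of the 79 subunit genes and 9.57% of all genes, so being lower in both was not particular to the subunits.

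**Figure D5:**
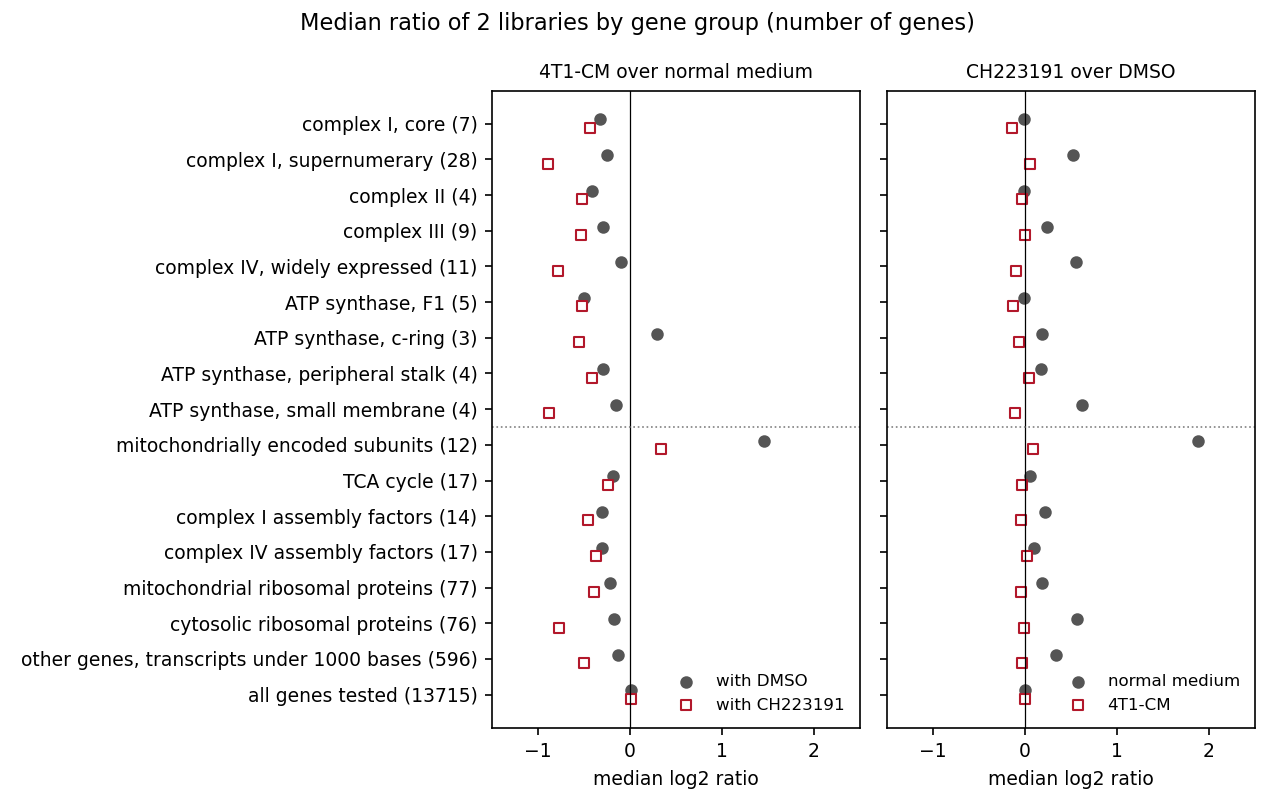
Median log2 ratio (horizontal axes) of each group of genes, with its number of genes, for 4T1-CM over normal medium (left) and CH223191 over DMSO (right), and groups of the nuclear-encoded subunits above the dotted line. The subunit groups lie at or below 0 on the left except the c-ring with DMSO, at 0.29, while the mitochondrially encoded subunits lie at 1.46 with DMSO.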

How the data were processed

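RNA of mouse peritoneal macrophages was measured in 4 libraries, 1 per condition, prepared with the NEBNext Ultra RNA kit from TRIzol extracts. The deposited values are raw read counts, whole numbers, for each gene. The submitters' processing notes name HISAT2 2.0.5 and DESeq2. How the reads were counted, whether strand was used and the genome build are not given in the sources used here for these libraries. Gene starts and ends equal those of GENCODE M21 (GRCm38) for 79 of the 85 members. Whether the cultures came from separate animals is not given either.

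Libraries totalled 15535405, 16129075, 17557127 and 16388246 reads. A gene entered the comparisons if any library had 10 reads or more, which left 13715 genes, including 11895 protein-coding ones. TMM scaling (edgeR 4.0.16, R 4.3.3) set the library sizes, and log2 ratios used a prior count of 0.5. Intervals of 95% treat a gene's reads in 2 libraries as a binomial split (exact, Clopper-Pearson) and cover counting error only. No pair of libraries could be tested, so a gene was called at 1.5-fold. The calculation was tested on simulated data. Levels per kilobase use the GENCODE M21 principal transcript. Shared reads were judged from 50-base words of a gene's transcripts found in other genes, and counts were marked uncertain above 20% or where named.

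Members and gene lists were chosen with earlier results of these data known. Genes named in the text are members at least 1.5-fold different in 1 direction in both comparisons of a pair, the members with the highest and lowest ratio of each complex, the most abundant per kilobase, the isoform sets and members with 10 reads or fewer in every library. From other lists, genes at least 1.5-fold different in both comparisons were named. Genes such as the core complex I, Sdh, redox and F1 subunits, Nrf1, Gabpa, Cycs, mt-Nd1, mt-Co2 and the pseudogenes were added for their known roles after their values were seen.

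The alternatives were DESeq2 1.42.0 size factors, total counts, other filters, a prior count of 5, a gene-length or transcript-length trend removed, 7 members with shared reads left out, 2-fold calls, and additive fits of edgeR and DESeq2 (medium and inhibitor, 1 residual degree of freedom).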

Additional observations from a re-analysis of the deposited data

How the results depend on the processing

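No paired analysis was possible because each condition has 1 library and the labels give no replicate numbers. Of 166 recomputed counts and medians of the subunits, 137 stayed within 1.5 times the count or within the spread of the value, and none changed direction. DESeq2 size factors, total counts, a mean of at least 10 reads, a prior count of 5 and leaving out 7 members with shared reads moved none of them.

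Without the filter, 3 members were higher in 4T1-CM with CH223191, 2 were higher with CH223191 in 4T1-CM, and 2 were higher in both comparisons of the media. Requiring at least 10 reads in every library left 0 in each of these 3 counts and 0 higher with CH223191 in both media, since it removes Cox6a2 and Cox7a1. At 2-fold, 1 member was higher and 4 lower in 4T1-CM with DMSO, 16 were lower with CH223191, in normal medium 12 were higher and 0 lower with CH223191, 0 were higher with CH223191 in 4T1-CM, and in both comparisons 4 were lower with 4T1-CM and 0 higher with CH223191. Shares over all genes were not computed at 2-fold, so whether these 2-fold counts exceed the background cannot be told. With the gene-length trend removed, 9 members were lower in 4T1-CM with DMSO (11.4%, against 14.3% of all genes). The medians were then -0.16 for 4T1-CM with DMSO, -0.46 for 4T1-CM with CH223191 and 0.18 for CH223191 in normal medium. With the transcript-length trend removed, which was chosen after seeing the data, 8 were lower with DMSO (10.1%, against 14.4% of all genes). With CH223191 25 were lower (31.6%, against 15.7%), 7 were lower in both, and those medians were -0.15, -0.38 and 0.16. With DMSO the members' share was thus below that of all genes under both removals. With both 4T1-CM libraries set against normal medium with DMSO, also chosen after seeing the data, 3 members were higher in both.

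The additive fits, which take the spread from 1 residual degree of freedom, called 37 members lower with 4T1-CM in edgeR at an adjusted p under 0.05 and 28 in DESeq2, with 1 higher in edgeR and 0 in DESeq2. Over all 13715 genes edgeR called 2228 lower (16.2%, beside 46.8% of the members) and 2249 higher with 4T1-CM, and DESeq2 called 1238 lower (9.03%, beside 35.4%) and 1205 higher. For CH223191 edgeR called 10 of all genes higher and 1 lower and DESeq2 13 and 1, and both called 0 members higher and 0 lower, with 17 higher and 1 lower in edgeR and 5 higher and 0 lower in DESeq2 at an unadjusted p under 0.05. For the 0 called higher with 4T1-CM in DESeq2, the count at an unadjusted p was 1. The residual of the additive fits is the change of the medium difference between DMSO and CH223191, not a spread between replicates. Their adjusted p-values therefore do not measure variation between cultures. The fitted medium difference also includes normal medium with CH223191, the library that stood apart by transcript length. Where a setting moved a count and its construction does not show why, the cause was not tested. Depth limits the genes with few reads, since 3 reads correspond to 0.171 to 0.189 CPM.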
